A study of Homo sapiens with 8 samples.

Results

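The genes described here encode proteins that build the spliceosome or steer it. They were chosen by name: every gene of the count table whose symbol starts with SRSF, HNRNP, SNRP, SF3A, SF3B, PRPF or U2AF, without the 7 antisense or divergent transcript genes that carry such names, and with at least 1 count. This gave 71 of the 34618 genes in the table, in 7 role classes: 11 SR proteins, 23 hnRNP genes, 8 Sm core genes, 4 further U1 and U2 snRNP genes, 9 SF3A and SF3B genes, 3 U2AF genes and 13 PRPF genes. A filter on low counts kept 68 of the 71 for testing.

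Splicing removes introns through a series of small nuclear ribonucleoproteins (snRNPs), most of them an RNA on a ring of Sm proteins. U1 binds the 5′ splice site, U2AF the 3′ splice site, and U2, through the SF3A and SF3B complexes, the branch point, after which the U4/U6.U5 tri-snRNP with its PRPF proteins activates the catalytic centre. SR proteins bind exonic enhancers and mostly promote exon inclusion, whereas hnRNP proteins coat nascent RNA and often act against them. Many SR and hnRNP genes limit their own transcripts through exons that trigger RNA decay, and SF3B1, SRSF2 and U2AF1 are recurrently mutated in myeloid disease.

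RNA was sequenced in 8 libraries, all labelled as THP1 cells, a line from a human acute monocytic leukaemia. For the 4 RRM2_OE libraries the labels differ: titles and genotype give cells with the iRxI/AxA mutant, whereas descriptions give RRM2 OE. The labels do not settle whether these are 1 construct or which applies, so the comparison is of the libraries so labelled. The 4 MOCK libraries came from cells carrying an empty vector. Cells of both groups were given doxycycline at 2 µg/mL, in medium with Tet-system approved serum. The labels say neither which promoter drives the construct, nor whether the cells were 1 clone or each replicate its own culture. The p-values below therefore rest on the spread among these libraries alone, which may be technical. RRM2, the small subunit of ribonucleotide reductase and the gene named in the RRM2_OE label, stood at 223, 236, 215 and 224 CPM in RRM2_OE libraries, against 116, 128, 123 and 127 CPM in MOCK libraries, in the order of replicates 1 to 4 as everywhere below. The groups did not overlap (log2 fold change 0.87, SE 0.05, adjusted p = 5.64e-07, by the quasi-likelihood test of edgeR over all genes). CPM are counts scaled to library sizes after TMM, a normalization that centres most genes on no change.

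Total counts ran from 11310049 to 11624220 in RRM2_OE and from 10994255 to 11686152 in MOCK. The myeloid labels of the cells held in part. Of 9 monocytic markers, 5 were called higher and 0 lower, with a summed level of 2695 to 2891 CPM in RRM2_OE and 2110.5 to 2301 CPM in MOCK, of which LYZ made most. CD68, a defining marker of monocytic cells, averaged 0.737 CPM in RRM2_OE and 0.667 CPM in MOCK and was not tested. All 5 granulocytic markers were called lower, with sums of 2005 to 2376 CPM in RRM2_OE and 4452 to 5323 CPM in MOCK. Of 9 erythroid and megakaryocytic markers, 1 was called higher and 3 lower, and their sums, 568 to 604 CPM in RRM2_OE and 579 to 609 CPM in MOCK, include GATA1 at 105 and 104 CPM and ITGA2B at 370.0 and 333 CPM in RRM2_OE and MOCK. T and NK markers summed to 64.9 to 80.1 CPM in RRM2_OE and 44.8 to 49.8 CPM in MOCK (4 of 6 called higher), B cell markers to 5.61 to 7.84 and 4.16 to 6.25 CPM (1 of 4 called higher, MS4A1 at 0 in all MOCK libraries), and epithelial markers to 30.1 to 33.9 and 27.4 to 33.8 CPM (0 of 4 called). The part of these shifts in the results on splicing genes was not tested, and fewer cells of a type cannot be told apart from less RNA per cell.

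Most of the splicing genes were well expressed. RPKM divides counts by library size and by the exon length listed for each gene. That length can exceed the length of the transcripts expressed, so levels of different genes compare only roughly. On this scale, 60 of the 68 tested genes averaged at least 10 over all libraries. The median of the 71 was 33.9 RPKM, against 6.25 RPKM over all genes tested. HNRNPA2B1, an RNA-binding protein of nuclear RNP particles that also takes part in mRNA transport, was the highest, at 139 ± 20.9 RPKM in RRM2_OE and 151 ± 23.0 RPKM in MOCK (mean ± SD, n = 4 each). It ranked 176th of all genes in the table by mean RPKM. SRSF2, which binds exonic enhancers, led the SR class at 93.7 ± 2.94 RPKM in RRM2_OE and 99.8 ± 0.489 RPKM in MOCK. SF3B5, a small SF3B subunit, led the branch site class at 62.9 ± 7.21 RPKM in RRM2_OE and 68.7 ± 8.66 RPKM in MOCK. The branch point protein SF3B1 followed at 55.7 ± 2.87 RPKM in RRM2_OE and 62.0 ± 4.37 RPKM in MOCK. The lengths used were 737 bases for SF3B5 and 9164 for SF3B1, and SF3B1 had more counts, 49145 against 4423 over all libraries.

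The other class leaders stood close together. PRPF8, the large scaffold at the catalytic centre, reached 54.6 ± 2.51 RPKM in RRM2_OE and 58.0 ± 3.22 RPKM in MOCK, SNRPC of U1 52.1 ± 1.42 RPKM in RRM2_OE and 52.5 ± 4.60 RPKM in MOCK, each as mean ± SD with n = 4, and U2AF2, the larger U2AF subunit, averaged 49.7 RPKM over all libraries. Within the Sm ring SNRPD2 led with 42.0 ± 9.21 RPKM in RRM2_OE and 43.6 ± 9.99 RPKM in MOCK, whereas SNRPE averaged 8.04 RPKM over all libraries. U2AF1, the smaller U2AF subunit that reads the AG of the 3′ splice site, averaged 11.7 RPKM, and its relative U2AF1L4 2.41 RPKM. The length listed for U2AF1 was 11112 bases, against 4115 for U2AF2, so the order of these genes may reflect the lengths used. The short Sm genes and HNRNPA1 have many processed copies in the genome. How reads shared with such copies were counted is not stated, so the levels of these genes are uncertain.

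**Figure D1:**
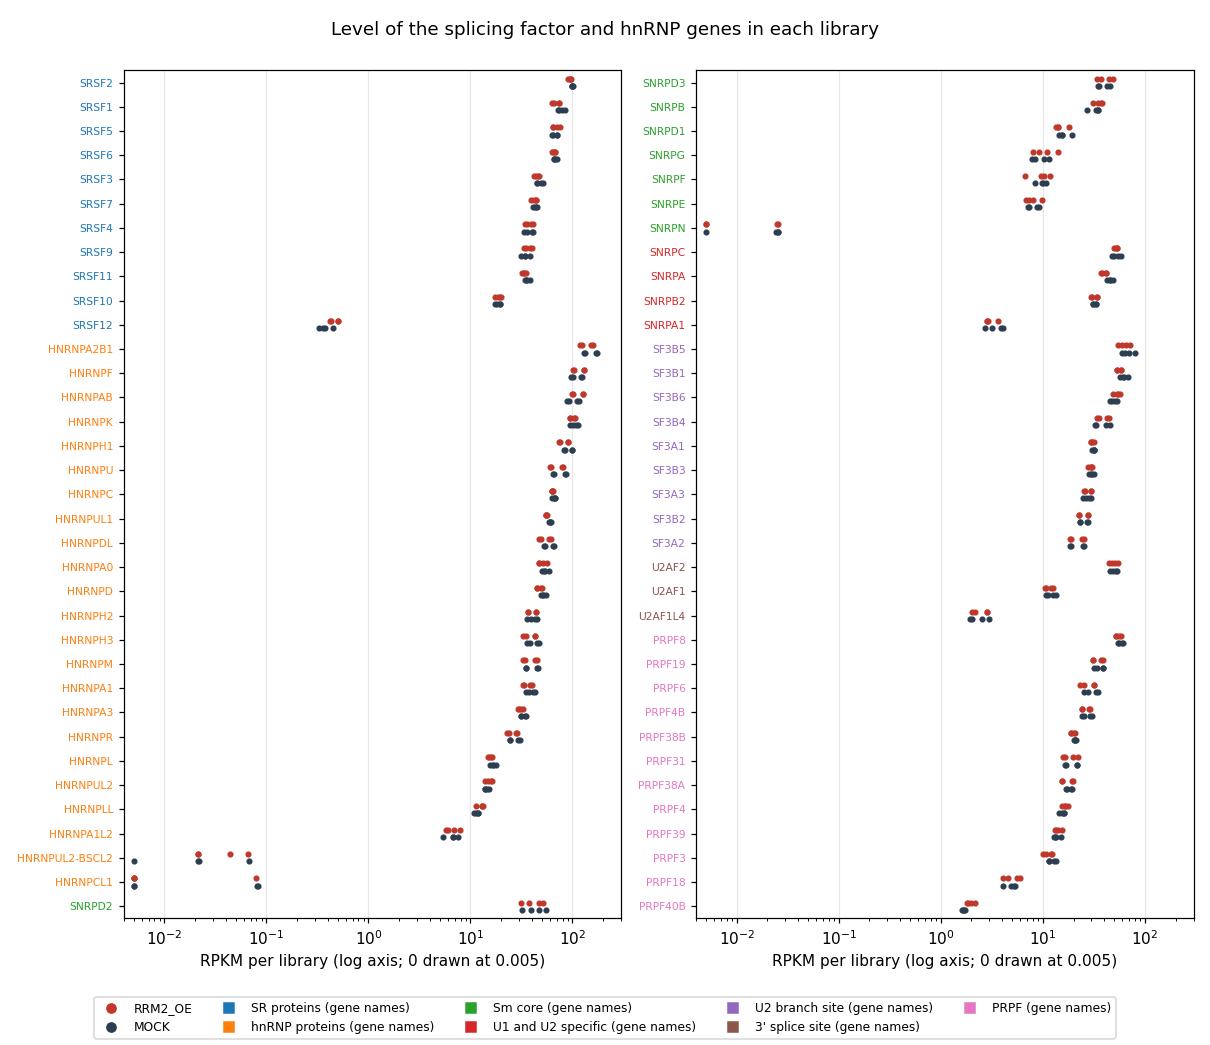
RPKM of 70 of the 71 splicing factor and hnRNP genes in each library on a log axis, ordered within role class by mean RPKM, RRM2_OE points above MOCK points on each line. HNRNPA2B1 was highest, and SRSF12, HNRNPUL2-BSCL2, HNRNPCL1 and SNRPN lay below 1 RPKM.

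At the low end, HNRNPCL1, a copy related to HNRNPC, had 3 reads in all, SNRPN had 5 and the HNRNPUL2-BSCL2 readthrough gene had 12. These 3 had the fewest counts of the 71 and were not tested, as the filter on low counts removed them. None of the genes kept after leaving out antisense and divergent transcript genes stood at 0. SNRPN, a close relative of SNRPB best known from neurons, had 1, 1, 0 and 0 counts in RRM2_OE and 1, 1, 1 and 0 counts in MOCK. Its span contains SNURF on the same strand, and reads in such overlaps may not have been assigned. Of the 71 genes, 14 overlap another measured gene on their own strand and 30 overlap 1 on the other. Whether reads were counted by strand is not given in the sources used here.

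Between RRM2_OE and MOCK the splicing genes differed little. Of the 68 tested, 3 were lower and 0 higher at an adjusted p below 0.05 (edgeR's quasi-likelihood test, p-values adjusted by Benjamini-Hochberg over 15286 genes), a share of 4.41% called. Over all genes tested, 12.8% were called, 7.41% higher and 5.42% lower. At an unadjusted p below 0.05, 2 were higher and 9 lower, against 14.3% and 12.3% of all genes. DESeq2 called 0 higher and 4 lower, against 6.35% and 5.06% of all genes, and limma-voom 0 higher and 3 lower, against 7.29% and 5.35%. The 68 log2 fold changes ran from -0.22 to 0.28, with a median of -0.06 against -0.00 over all genes tested. Of them, 49 (72.1%) were negative, against 50.6% of all genes tested. For 67 genes the 95% interval of the fold change lay within 1.5-fold in either direction. The exception was SRSF12, at 2.10 ± 0.177 CPM in RRM2_OE and 1.73 ± 0.241 CPM in MOCK, with an interval of -0.12 to 0.67 on the log2 scale.

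Replicate numbers are shared by the groups, and with replicate number as a block in the same test, 24 of the 68 were lower and 3 higher. The block called 29.1% of all genes, 14.0% lower and 15.1% higher. The 35.3% of splicing genes called lower stand against that 14.0%, and the 4.41% called higher against 15.1%. The fold changes themselves hardly moved, and those of the 24 genes lay between -0.22 and -0.07 on the log2 scale, that is, 13.9% to 5.01% below MOCK. Within replicates 1 and 3 and again within replicates 2 and 4, both RRM2_OE libraries lay below both MOCK libraries for 25 of the 68 genes, against 16.6% of all genes tested, and above for 3, against 17.4%. A term for odd or even numbers in place of the block called 24 lower and 4 higher, against 14.9% and 15.9% of all genes (30.8% either way). Replicates 1 and 3 alone called 13 lower and 2 higher, against 8.63% and 9.54% (18.2% either way), and replicates 2 and 4 alone 15 lower and 1 higher, against 7.96% and 9.05% (17.0% either way). The genes called higher were HNRNPAB, HNRNPLL, PRPF40B and HNRNPF with the odd or even term, the first 3 of these with the block, HNRNPAB and SNRPB in replicates 1 and 3, and HNRNPAB in replicates 2 and 4. The block and these counts were chosen with the split between odd and even numbers already known.

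**Figure D2:**
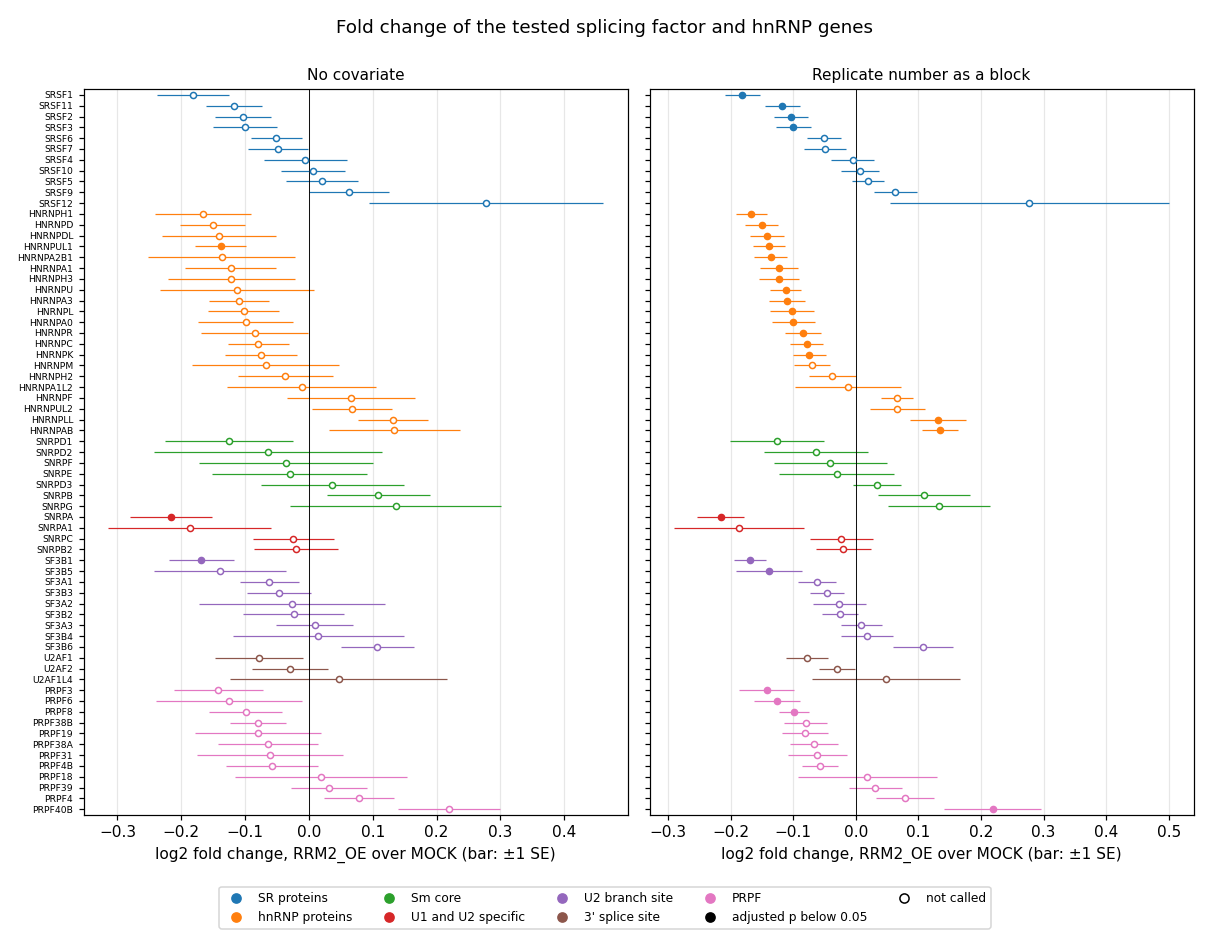
Log2 fold change of RRM2_OE over MOCK with its standard error for 67 of the 68 tested genes by role class, without (left) and with (right) replicate number as a block. Filled points passed an adjusted p of 0.05: 3 genes lower without the block, 24 lower and 3 higher with it, all between -0.22 and 0.22.

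The 3 genes that were lower without the block came from 3 classes. SF3B1 (ENSG00000115524, chromosome 2, 198254508 to 198299815 of hg19), the SF3B subunit that holds the branch point adenosine, stood at 489, 525, 494 and 526 CPM in RRM2_OE libraries, against 543, 573, 557 and 615 CPM in MOCK libraries. All RRM2_OE libraries lay below all MOCK libraries, and within each group replicates 1 and 3 were the lower pair. The log2 fold change was -0.17 (SE 0.05, adjusted p = 0.046, edgeR), or 11.1% lower, with adjusted p = 4.57e-06 with the block.

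SNRPA (ENSG00000077312, chromosome 19, 41256542 to 41271294 of hg19), the A protein of the U1 snRNP, which binds a stem-loop of U1 RNA, stood at 99.6, 87.5, 98.3 and 86.6 CPM in RRM2_OE libraries, against 118, 108, 108 and 98.9 CPM in MOCK libraries. The groups overlapped, because the highest RRM2_OE library lay above MOCK replicate 4, but replicates 1 and 3 were the higher pair in both groups and within each pair of numbers RRM2_OE was lower. The log2 fold change of -0.22 (SE 0.06, adjusted p = 0.0444, edgeR) was the lowest of the 68, and the block gave adjusted p = 2.94e-05. ACTMAP overlaps SNRPA on the opposite strand.

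HNRNPUL1 (ENSG00000105323, chromosome 19, 41768401 to 41813503 of hg19), a nuclear RNA-binding protein with a part in DNA end resection, stood at 364, 362, 365 and 358 CPM in RRM2_OE libraries, against 401, 411, 391 and 392 CPM in MOCK libraries. The groups did not overlap, and the RRM2_OE libraries spread by 2.94 CPM (SD, n = 4). The log2 fold change was -0.14 (SE 0.04, adjusted p = 0.0402, edgeR), and the block gave adjusted p = 9.71e-05. TGFB1 overlaps HNRNPUL1 on the opposite strand.

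These 3 calls lay close to the threshold. Over 20 alternatives the adjusted p ran up to 0.155 for SF3B1, 0.118 for SNRPA and 0.112 for HNRNPUL1 (edgeR, DESeq2 or limma), always with a negative fold change. Among the 68 genes, 1 was called lower without RRM2_OE replicate 1, 2 or 3 or without MOCK replicate 1 or 4, and 0 without RRM2_OE replicate 4 or MOCK replicate 2 or 3, each fit having 7 libraries. The 1 was SNRPA without RRM2_OE replicate 1 or 3 or MOCK replicate 4, and SF3B1 without MOCK replicate 1. Without RRM2_OE replicate 2 it was another gene, and all 3 calls were lost there too. The share of all genes called lower was also smaller in these fits, 3.51% to 3.93%. With a library left out the log2 fold changes ran from -0.19 to -0.13 for SF3B1, from -0.26 to -0.17 for SNRPA and from -0.15 to -0.12 for HNRNPUL1. On library sizes without TMM, 1 gene was called lower, against 4.17% of all genes. With limma, 0 were called lower on log2(RPKM + 1) and 0 on log2(RPKM + 0.1), against 3.03% and 2.96% of all genes, and edgeR at an adjusted p below 0.01 called 0, against 1.84%.

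The promoter windows of these 3 genes are shown because they are the genes that passed without the block. They run from 250 bases before to 50 after the RefSeq start in GRCh38.p14, 5′ to 3′ on the gene's strand, with matches to 6 short motifs in capitals. For SF3B1 the window is chr2:197434979-197435278 on the minus strand, for SNRPA chr19:40750953-40751252 on the plus strand, and for HNRNPUL1 chr19:41262307-41262606 on the plus strand.
SF3B1: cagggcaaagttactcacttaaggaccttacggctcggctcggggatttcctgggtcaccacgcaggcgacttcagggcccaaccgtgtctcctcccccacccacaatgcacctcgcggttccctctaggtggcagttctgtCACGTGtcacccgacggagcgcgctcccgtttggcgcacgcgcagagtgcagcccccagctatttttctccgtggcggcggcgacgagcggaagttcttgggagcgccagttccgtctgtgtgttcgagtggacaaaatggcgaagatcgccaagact
SNRPA: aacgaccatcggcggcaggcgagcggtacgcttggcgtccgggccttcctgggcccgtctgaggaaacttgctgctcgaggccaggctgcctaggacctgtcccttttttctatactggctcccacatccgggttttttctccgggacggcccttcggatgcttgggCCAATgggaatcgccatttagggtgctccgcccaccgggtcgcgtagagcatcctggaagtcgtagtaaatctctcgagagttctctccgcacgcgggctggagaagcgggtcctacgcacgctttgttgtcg
HNRNPUL1: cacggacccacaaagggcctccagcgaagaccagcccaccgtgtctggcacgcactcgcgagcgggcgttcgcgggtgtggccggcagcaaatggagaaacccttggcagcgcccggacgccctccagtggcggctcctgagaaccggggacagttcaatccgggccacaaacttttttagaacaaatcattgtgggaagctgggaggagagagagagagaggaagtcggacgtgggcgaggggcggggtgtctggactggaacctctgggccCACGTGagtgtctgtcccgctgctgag
The capitals mark CACGTG, the E-box read by MYC and related factors, from base 143 of the SF3B1 window and from base 274 of the HNRNPUL1 window, and CCAAT, the letters read by NF-Y, from base 168 of the SNRPA window. A match is no evidence of binding.

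hnRNP genes made up most of the genes that the block called. Of 21 tested, 1 was lower without the block, against 5.42% of all genes. With it, 14 were lower (66.7%) and 2 higher (9.52%), against 14.0% and 15.1% of all genes. The median log2 fold change of the class was -0.10. Here and below, genes outside the naming rule were chosen after their values were seen. HNRNPH1, which binds G-rich splicing silencers and enhancers, stood at 710.0, 839, 720.1 and 851 CPM in RRM2_OE libraries, against 815, 944, 809 and 932 CPM in MOCK libraries. The groups overlapped across odd and even numbers and did not overlap within either (log2 fold change -0.17, SE 0.02, adjusted p = 3.23e-06 with the block and 0.18 without, edgeR).

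HNRNPA2B1, the most abundant of the genes, stood at 902, 1187, 937 and 1144 CPM in RRM2_OE libraries, against 1032, 1312, 979.9 and 1261 CPM in MOCK libraries. Replicates 2 and 4 were well above replicates 1 and 3 in both groups, a gap larger than that between the groups, and the log2 fold change was -0.14 (SE 0.03, adjusted p = 1.19e-04 with the block and 0.505 without, edgeR). HNRNPD, also called AUF1, which binds AU-rich elements and promotes mRNA decay, stood at 321, 349.6, 315 and 337 CPM in RRM2_OE libraries, against 374, 389, 347 and 358 CPM in MOCK libraries. Its RRM2_OE libraries lay below MOCK except that RRM2_OE replicate 2 exceeded MOCK replicate 3 (adjusted p = 5.60e-05 with the block and 0.0726 without, edgeR). HNRNPDL, HNRNPU, HNRNPA1 and HNRNPA3 were lower with the block, with log2 fold changes of -0.14, -0.11, -0.12 and -0.11, and so were HNRNPH3, HNRNPL, HNRNPA0, HNRNPR, HNRNPC and HNRNPK, with -0.12, -0.10, -0.10, -0.08, -0.08 and -0.07.

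The 2 hnRNP genes called higher with the block were HNRNPAB and HNRNPLL. HNRNPAB, a relative of HNRNPD, stood at 219.9, 271, 215 and 266 CPM in RRM2_OE libraries, against 205, 254, 189.9 and 237 CPM in MOCK libraries. Within odd and within even numbers RRM2_OE was above MOCK (log2 fold change 0.13, adjusted p = 4.29e-04 with the block and 0.462 without, edgeR). HNRNPLL, which switches CD45 exon use in activated T cells, stood at 79.4, 75.3, 68.4 and 76.4 CPM in RRM2_OE libraries, against 65.8, 67.6, 70.1 and 70.0 CPM in MOCK libraries. Only RRM2_OE replicate 3 fell within the MOCK range (log2 fold change 0.13, adjusted p = 0.0261 with the block and 0.143 without, edgeR). HNRNPF, HNRNPH2, HNRNPM, HNRNPUL2 and HNRNPA1L2 passed neither test, with log2 fold changes of 0.07, -0.04, -0.07, 0.07 and -0.01.

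Summed over the class, hnRNP transcripts made 6060, 7018, 6070 and 6925 CPM in RRM2_OE libraries, against 6544, 7527, 6431 and 7362 CPM in MOCK libraries. The sums were lower in RRM2_OE within each pair of numbers. Over all 71 genes, 1.24%, 1.40%, 1.23% and 1.37% of counts fell on them in RRM2_OE, against 1.29%, 1.43%, 1.31% and 1.46% in MOCK.

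Of the 11 SR genes, 0 passed without the block, against 12.8% of all genes (edgeR, 3 at an unadjusted p below 0.05, all lower, against 12.3%). With it, 4 were lower (36.4%) and 0 higher, against 14.0% and 15.1% of all genes. SRSF1, the founding SR protein, stood at 215, 243, 221 and 241 CPM in RRM2_OE libraries, against 248, 269, 248 and 279 CPM in MOCK libraries. All RRM2_OE libraries lay below all MOCK libraries, and the log2 fold change was -0.18 (SE 0.06, adjusted p = 0.053 without the block and 5.47e-06 with it, edgeR). SRSF2 stood at 296, 281, 285 and 268 CPM in RRM2_OE libraries, against 308, 306, 302 and 296 CPM in MOCK libraries, again without overlap, though RRM2_OE replicate 1 and MOCK replicate 4 were nearly level (log2 fold change -0.10, adjusted p = 0.153 without the block and 0.00379 with it, edgeR). SRSF11 did not overlap either, and SRSF3, a small SR protein that also links splicing to mRNA export, did: their log2 fold changes were -0.12 and -0.10, with adjusted p = 0.00156 and 0.00699 with the block (edgeR).

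The remaining SR genes did not pass. SRSF5, SRSF9 and SRSF10 gave 0.02, 0.06 and 0.01 on the log2 scale and SRSF4, SRSF6 and SRSF7 gave -0.01, -0.05 and -0.05. None of these 6 was called with or without the block. Groups that did not overlap were found for 5 of the 68 genes in the lower direction, SRSF1, SRSF2, SRSF11, SF3B1 and HNRNPUL1, against 8.89% of all genes tested, and for 1 in the higher direction, PRPF40B, against 10.5% (19.4% either way).

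**Figure D3:**
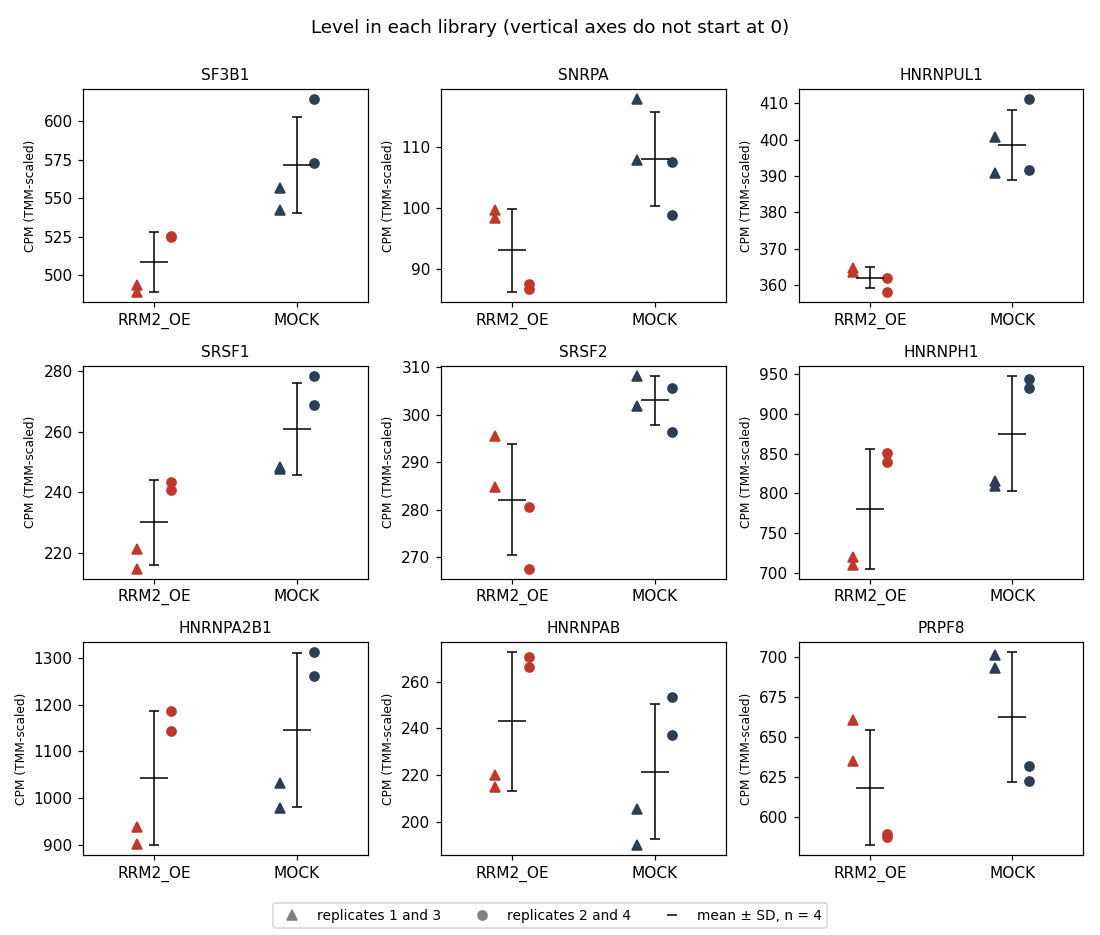
TMM-scaled CPM of 9 genes in each library, RRM2_OE left of MOCK, triangles for replicates 1 and 3, circles for replicates 2 and 4, with mean ± SD (n = 4). In SF3B1, SRSF1, SRSF2 and HNRNPUL1 the groups did not overlap, while HNRNPA2B1, HNRNPH1, HNRNPAB, PRPF8 and SNRPA separated only within like numbers.

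In the U2 branch site complexes, the share of genes called without the block, 11.1%, was close to the 12.8% of all genes. Of the 9 SF3A and SF3B genes, 1 was lower without the block, against 5.42% of all genes, and 2 (22.2%) with it, against 14.0%. The second was SF3B5, at 53.2, 43.4, 48.7 and 39.8 CPM in RRM2_OE libraries, against 53.0, 44.8, 59.2 and 46.8 CPM in MOCK libraries (log2 fold change -0.14, adjusted p = 0.0439 with the block and 0.443 without, edgeR). SF3A1, SF3A2 and SF3A3 gave log2 fold changes of -0.06, -0.03 and 0.01, and SF3B2, SF3B3, SF3B4 and SF3B6 gave -0.02, -0.05, 0.01 and 0.11. None of these 7 passed. Whether SF3B1 differed from them in its change was not tested.

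None of the 3 U2AF genes passed with or without the block, against 29.1% and 12.8% of all genes. U2AF1 stood at 120.3, 138, 118 and 133 CPM in RRM2_OE libraries, against 123, 139.7, 126 and 148 CPM in MOCK libraries, and U2AF2 at 187, 219.6, 197 and 207 CPM in RRM2_OE libraries, against 193, 220.4, 200.3 and 214 CPM in MOCK libraries. Groups overlapped for both, and the log2 fold changes were -0.08 (95% interval -0.23 to 0.07) and -0.03 (95% interval -0.16 to 0.10), with adjusted p = 0.0815 and 0.464 with the block (edgeR).

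Of the 13 PRPF genes, 0 passed without the block, against 12.8% of all genes (edgeR, 1 higher at an unadjusted p below 0.05, against 14.3%). With it, 3 were lower (23.1%) and 1 higher (7.69%), against 14.0% and 15.1% of all genes. PRPF8 stood at 635, 588, 661 and 589 CPM in RRM2_OE libraries, against 693, 623, 701 and 632 CPM in MOCK libraries. Replicates 1 and 3 were the higher pair in both groups, and RRM2_OE was lower within each pair (log2 fold change -0.10, SE 0.02 and adjusted p = 0.00242 with the block, adjusted p = 0.302 without, edgeR). The tri-snRNP proteins PRPF3 and PRPF6 gave -0.14 and -0.13, with adjusted p = 0.0134 and 0.01 with the block (edgeR). PRPF40B was the 1 called higher, at 20.5, 18.5, 17.6 and 17.0 CPM in RRM2_OE libraries, against 15.8, 16.4, 15.5 and 15.6 CPM in MOCK libraries. All RRM2_OE libraries lay above all MOCK libraries (log2 fold change 0.22, adjusted p = 0.0324 with the block and 0.0935 without, edgeR), and FMNL3 and FAM186B overlap the gene on the opposite strand.

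Of 7 tested Sm genes, 0 passed with or without the block, against 29.1% and 12.8% of all genes (edgeR, 0 at an unadjusted p below 0.05 without the block). Their log2 fold changes ran from -0.13 for SNRPD1 to 0.14 for SNRPG. In replicates 1 and 3 alone SNRPB, a core Sm protein, was called higher, with a log2 fold change of 0.21 and adjusted p = 0.00909 (edgeR), against 0.00097 in replicates 2 and 4. SNRPD2 stood at 60.9, 82.0, 51.0 and 75.2 CPM in RRM2_OE libraries, against 53.3, 76.3, 63.8 and 88.0 CPM in MOCK libraries, with an interval of -0.47 to 0.34 on the log2 scale. The class had the widest spread, a median coefficient of variation of 15.5% in RRM2_OE and 11.8% in MOCK, against 4.61% and 5.20% for SR genes and 8.52% and 8.70% over all genes tested. SNRPC, SNRPA1 and SNRPB2, the other U1 and U2 proteins, gave -0.02, -0.19 and -0.02 and did not pass.

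The spread of the splicing genes within a group followed the replicate number. In 34 of the 68 genes both groups had replicates 1 and 3 entirely below replicates 2 and 4, and in 12 entirely above, against 16.9% and 16.7% of all genes tested. No test is given, as the split was known from these data. hnRNP genes leaned to the lower side in odd numbers, 13 of 21 against 3 higher, as did Sm genes, 4 of 7 against 0, and SR genes, 6 of 11 against 0. Of the 9 SF3A and SF3B genes, 3 were lower and 5 higher in odd numbers.

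HNRNPU, a scaffold protein that binds chromatin and RNA, showed a large gap, at 526, 678, 510.5 and 662 CPM in RRM2_OE libraries, against 564, 725, 557 and 722 CPM in MOCK libraries. Replicates 1 and 3 lay near 0.37 below replicates 2 and 4 on the log2 scale in each group. SF3A2, a U2 protein, went the other way at 80.3, 56.5, 75.6 and 58.5 CPM in RRM2_OE libraries, against 79.8, 59.0, 79.0 and 58.0 CPM in MOCK libraries, with differences of 0.44 in both groups and a fold change between groups of -0.03. SF3B4, another U2 protein, also stood higher in odd numbers, at 96.3, 75.2, 101 and 78.8 CPM in RRM2_OE libraries, against 105, 75.7, 94.1 and 72.1 CPM in MOCK libraries. Mitochondrial genes took 8.52%, 6.43%, 8.13% and 6.60% of counts in RRM2_OE, against 9.51%, 7.69%, 8.02% and 6.59% in MOCK, also higher in odd numbers, and their part in these differences was not tested.

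**Figure D4:**
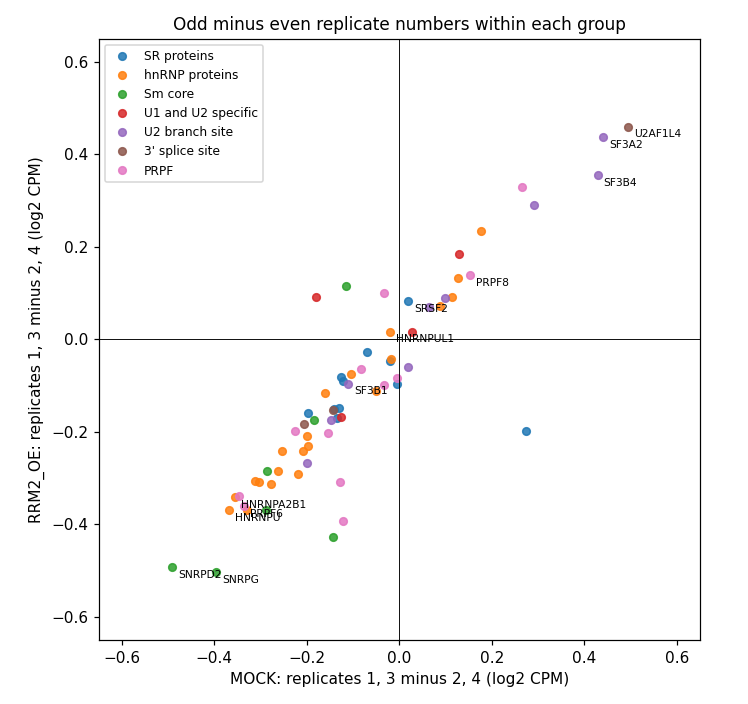
Mean log2 CPM of replicates 1 and 3 minus that of replicates 2 and 4 for 67 of the 68 tested genes, RRM2_OE on the vertical and MOCK on the horizontal axis, coloured by role class. Of the 68 genes, 34 lay below 0 without overlap in both groups and 12 above, with HNRNPU, SNRPD2 and SNRPG low and SF3A2, SF3B4 and U2AF1L4 high.

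Without the block, few other genes of splicing were called, 5.21% against 12.8% of all genes. Of 96 further spliceosome subunits, splicing regulators, snRNP assembly factors and SR protein kinases, all tested, 2 were higher and 3 lower (edgeR, adjusted p below 0.05, against the 7.41% and 5.42% of all genes). With the block, 8 (8.33%) were higher and 23 (24.0%) lower, against 15.1% and 14.0% of all genes. QKI, a STAR family regulator of exon use and circular RNA, stood at 143, 149, 143 and 146 CPM in RRM2_OE libraries, against 169, 172, 170.0 and 169 CPM in MOCK libraries. The groups were well apart (log2 fold change -0.23, SE 0.04, adjusted p = 0.0023, edgeR), and the call held under all 20 alternatives.

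CLNS1A, the pICln chaperone that brings Sm proteins to the PRMT5 complex, stood at 115, 116, 110.2 and 119.9 CPM in RRM2_OE libraries, against 127, 141, 127 and 144 CPM in MOCK libraries, without overlap (log2 fold change -0.22, adjusted p = 0.0158, edgeR). MBNL3, a muscleblind protein, was also lower, with 56.9 ± 4.37 CPM in RRM2_OE and 67.9 ± 3.00 CPM in MOCK (mean ± SD, n = 4 each, log2 fold change -0.26, adjusted p = 0.0174, edgeR). BUD31, a component of the activated spliceosome, was higher, with 75.3 ± 3.67 CPM in RRM2_OE and 64.1 ± 3.45 CPM in MOCK (log2 fold change 0.23, adjusted p = 0.0165, edgeR). RBFOX2, a regulator that binds GCAUG elements, was higher at low level, with 14, 16, 12 and 17 counts in RRM2_OE and 8, 7, 8 and 8 counts in MOCK (log2 fold change 0.88, SE 0.25, adjusted p = 0.0385, edgeR).

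In fits with 7 libraries some of these calls were lost. That of CLNS1A was lost without MOCK replicate 2, that of MBNL3 without RRM2_OE replicate 4 or MOCK replicate 3, that of BUD31 without RRM2_OE replicate 2 or MOCK replicate 4, and that of RBFOX2 without any of 7 libraries, RRM2_OE replicate 3 being the exception. The log2 fold changes without a library stayed between -0.25 and -0.19 for CLNS1A, -0.29 and -0.21 for MBNL3, 0.20 and 0.26 for BUD31 and 0.81 and 0.97 for RBFOX2. The highest adjusted p over their alternatives was 0.072 for CLNS1A, 0.058 for MBNL3, 0.168 for BUD31 and 0.392 for RBFOX2 (edgeR, DESeq2 or limma).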

How the data were processed

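The authors deposited raw read counts for each Ensembl gene and an RPKM table, per the file headers, with an exon length for each gene. Tools named in the submitters' processing notes, without roles, are HTSeq 0.11.2, TopHat2 and bcl2fastq 2.18.0.12, and the build is hg19 (GRCh37). Libraries were stranded and poly(A)-selected from 200 ng of total RNA, per the labels' protocols. IDs were named from a table of current symbols (32562 genes) or GENCODE 29 (299), and 1757 stayed unnamed.

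For the test of RRM2_OE over MOCK, filterByExpr kept 15286 genes, and edgeR 4.0.16 (R 4.3.3) gave TMM factors and robust quasi-likelihood F tests with no covariate, called at a Benjamini-Hochberg adjusted p below 0.05. The standard error was taken from the fold change and its F value, and 95% intervals use the test's degrees of freedom. In simulated counts of this comparison (15276 genes tested), 31.3% of genes changed by 0.3 on the log2 scale and 89.6% of those changed by 0.6 were recovered. The simulation gave all genes the same dispersion (spread between replicates beyond counting noise) and no difference between odd and even numbers. The real libraries do differ by number, so these shares do not say how often such changes would be found in them. Alternatives used DESeq2 1.42.0, limma 3.58.1 on counts (voom) and on log2(RPKM + 1) and log2(RPKM + 0.1), other scalings and filters, a block, an odd/even term and left-out libraries.

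Deviations from group means correlated at 0.22 to 0.25 for same-numbered libraries, over 0.1 in all 4 pairs, by which the numbers were taken to pair libraries. Other pairs of like parity gave 0.23 to 0.29 and pairs of unlike parity -0.28 to -0.21, and 1 of 8 libraries correlated best with its own number, so odd against even numbers split the libraries at least as well as single numbers.

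The genes, lists and alternatives were chosen with earlier results of these data known. Genes named by rule were RRM2, all called genes, the highest by RPKM in each class, SF3B1, SRSF2, U2AF1, PRPF8, those with the fewest counts, and up to 6 called genes each way among the 96 others. Promoters are from RefSeq tables (GRCh38.p14), with 63 of 71 genes matched by symbol. One of the genes enters the counts but is not reported by name here or drawn.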

Additional observations from a re-analysis of the deposited data

How the results depend on the processing

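RRM2 kept its call under all 20 alternatives. Of the 71 genes, those called higher were 0 in the test without covariate, 3 with the replicate block (15.1% of all genes) and 4 with the odd/even term (15.9%). In replicates 1 and 3 only they were 2 (9.54%), and in replicates 2 and 4 only 1 (9.05%). Those called lower, 3, were 24 with the replicate block (14.0% of all genes) and 24 with the odd/even term (14.9%). They were 13 in replicates 1 and 3 only (8.63%) and 15 in replicates 2 and 4 only (7.96%). They were 1 with library sizes only (4.17%), 0 on log2(RPKM + 1) (3.03%) and on log2(RPKM + 0.1) (2.96%). At an adjusted p below 0.01 they were 0 (1.84%), and on leaving out a library 0 to 1 (3.51% to 3.93%). Of the 96 other splicing genes, those called higher, 2, were 8 with the replicate block (15.1% of all genes) and 8 with the odd/even term (15.9%). They were 1 in replicates 1 and 3 only (9.54%), in replicates 2 and 4 only (9.05%), without a filter (4.24%) and with DESeq2 (6.35%). They were also 1 on log2(RPKM + 1) (6.65%) and on log2(RPKM + 0.1) (6.54%). At an adjusted p below 0.01 they were 0 (3.47%), and on leaving out a library 0 to 2 (5.24% to 6.07%). Those called lower, 3, were 23 with the replicate block (14.0% of all genes) and 25 with the odd/even term (14.9%). They were 15 in replicates 1 and 3 only (8.63%), 15 in replicates 2 and 4 only (7.96%) and 5 without a filter (3.38%). They were 1 on both RPKM scales (3.03% and 2.96%) and 1 at an adjusted p below 0.01 (1.84%). With the replicate block, all 8 splicing genes called without it kept their calls. The block and the odd/even term fit differences by replicate number, which the test without covariate does not. The leave-out fits and the fits within a pair of numbers have fewer samples. The cause of the differences in these counts was not tested. Among the genes named by rule, the only ones put through each alternative singly, signs turned, never with a call, for U2AF2 (-0.071 to 0.0072 on leaving out a library, above 0 without RRM2_OE replicate 1 or MOCK replicate 2), SNRPD2 (-0.18 to 0.061, above 0 without RRM2_OE replicate 3 or MOCK replicate 4) and SNRPC (-0.067 to 0.028, above 0 without MOCK replicate 2, and 0.11 in replicates 1 and 3 only). Over the 68 tested genes, 56 had the same sign in both pairs of numbers, against 11345 of all 15286 genes tested. PRPF38A was called lower in replicates 1 and 3 only (-0.16, adjusted p = 0.0227, edgeR) and gave 0.021 in replicates 2 and 4 only.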

Other observations

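Promoter letters were counted in the windows of 63 splicing genes and set beside those of all 27305 windows of 300 bases in the RefSeq table (GRCh38.p14), coding and non-coding, on both strands and with exact matches. CCGGAAG, read by ETS factors, was found in 21 of the 63 windows (33.3%), against 10.7% of all windows. CACGTG, the E-box, was found in 8 (12.7%), against 7.43%, CCAAT, read by NF-Y, in 27 (42.9%), against 35.7%, and TATAAA, the TATA box, in 6 of the 63, against 3264 of the 27305. GCATGCGC, read by NRF1, was found in 4 (6.35%), against 3.27%, and AAGATGG, read by YY1, in 6 (9.52%), against 6.06%. The letters of these motifs do not contain one another. The windows of the splicing genes held a median of 28 CpG and 62.0% G and C, against 14 and 58.3% over all windows. These shares are descriptions with no test.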
